A study of Mus musculus with 29 samples.

Results

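Colon RNA was sequenced from 29 mice in 9 groups, and 10 genes of immune checkpoints and regulatory T cells were followed across 6 colitis models and 3 control groups. The genes were found by matching the symbols Cd274, Pdcd1lg2, Pdcd1, Lag3, Tigit, Havcr2, Ctla4, Icos, Foxp3 and Il2ra to the Ensembl identifiers of the count table. They make up 10 of 54532 genes listed, and all 10 were among the 18616 genes that averaged 3 or more counts per mouse and were tested. Values are CPM, counts relative to library size, scaled by the trimmed mean of M-values (TMM), with 1 library per mouse.

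As labelled, untreated Balb/C mice (wild-type controls, n = 3) were the controls for Balb/C mice that drank 3% dextran sulfate sodium (DSS) for 5 days and were culled at day 10 (n = 3), that received 3 mg dinitrobenzene sulfonic acid (DNBS) rectally in 50% ethanol (n = 3), or that were given an IL10 blocking antibody (IL-10 blockade, n = 4). Untreated Balb/C Rag2-/- mice (n = 3) were the controls for TRUC mice, untreated Balb/C Tbx21-/- x Rag2-/- animals (n = 4). Untreated C57BL/6 Rag1-/- mice (n = 3) were the controls for C57BL/6 Rag1-/- mice given 500000 naive CD4+ T cells and culled 6 to 8 weeks later (T-cell transfer, n = 3) or 50 µg of agonistic anti-CD40 antibody and culled after 7 days (n = 3). Mice without a functional Rag1 or Rag2 gene make no T or B cells. By label this holds for TRUC mice and their controls and for anti-CD40 and its controls. In the transfer model the transferred CD4+ cells are the intended T-cell source. Cd8a, which encodes a chain of CD8, was counted 111, 146 and 66 times there, against 1, 1 and 0 in its controls. Where these reads came from was not tested. The labels state no age for any group, although the count-table identifier of TRUC mouse 4 holds an 8W that they do not explain, and the IL-10 model is an antibody group in the labels, with 750 µg named for an antibody against the IL-10 receptor, but Il10-/- mice in the methods of the study, which also name C57Bl6 rather than Balb/C for DSS. Il10 was counted 106, 111, 61 and 75 times in the IL-10 blockade mice and 1, 4 and 3 times in the wild-type controls.

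The counts of Rag1 and Rag2 did not follow the genotype labels of all groups. Rag2 was counted 25, 17 and 15 times in the Rag2-/- controls and 94, 63, 57 and 63 times in TRUC, but at most 1 time in each mouse of the wild-type, DSS, DNBS and IL-10 blockade groups, so that Rag2 reads went with the Rag2-/- label. The libraries labelled Rag1-/- control had 16, 6 and 20 Rag2 counts and anti-CD40 48, 99 and 48, as the labelled Rag2-/- mice did, with 0, 4 and 2 and 0, 0 and 2 Rag1 counts. T-cell transfer had 0, 0 and 0 Rag2 counts and 33, 27 and 20 Rag1 counts, the highest Rag1 of all groups. The treatment protocol calls the T-cell recipients Rag2-/-, and the genotypes of the transfer libraries and of the libraries labelled as their controls may differ, so every direction drawn for these groups rests on the labels. Tbx21, the other gene named as deleted in TRUC, was counted 33, 52, 35 and 26 times in the libraries labelled TRUC and 1, 1 and 7 times in the Rag2-/- controls, which goes against that label as well. Gene counts do not show which exons the reads cover, so none of these counts settles a genotype, and the group names used here stand for the libraries so labelled. Wild-type controls served as a second control for T-cell transfer and Rag2-/- controls for anti-CD40. Both second controls are labelled Balb/C and both models C57BL/6, so strain and treatment cannot be told apart in these comparisons. Summed CPM of 16 T-cell markers was 5.97 to 11.1 in Rag2-/- controls, 14.98 to 20.7 in TRUC, 8.59 to 10.8 in the libraries labelled Rag1-/- control and 10.8 to 14.7 with anti-CD40, against 24.2 to 38.2 in wild-type controls. Cd3d and Cd5 were at 0 counts in every Rag2-/- control. The DSS mouse 8 stood apart from the other DSS mice and the DNBS mouse 16 from the other DNBS mice in several of the genes. Results that mouse 8 or mouse 16 moved most are given without them too, except the likeness between genes. That choice was made after seeing the data.

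Immune checkpoints are pairs of a ligand and a receptor that restrain activated T cells. PD-L1 and PD-L2, the products of Cd274 and Pdcd1lg2, are carried by myeloid, epithelial and other cells and bind PD-1 on T cells, while CTLA-4 competes with the costimulatory receptor CD28 for CD80 and CD86 on antigen-presenting cells. Regulatory T cells, which depend on the transcription factor FOXP3 and carry high levels of the IL-2 receptor alpha chain, CTLA-4, ICOS and TIGIT, hold back responses to the microbiota in the colon, and transfer of naive CD4+ cells without them into lymphocyte-deficient mice leads to colitis.

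The genes rose most widely in IL-10 blockade, T-cell transfer and DSS, less widely in TRUC, and hardly or not at all in anti-CD40 and DNBS. In IL-10 blockade 10 of 10 genes were higher than in wild-type controls (edgeR quasi-likelihood test, adjusted p under 0.05), where 27.2% of all genes tested were called higher. In DSS 9 of 10 were higher (17.7% of all genes), and in T-cell transfer 9 of 10 (16.1%). TRUC mice had 6 of 10 genes higher (22.4%) and anti-CD40 had 1 of 10 (10.9%), a share close to that of all genes. In DNBS none of the 10 was called by edgeR, none had an unadjusted p under 0.05 and DESeq2 called none, where 3.95% of all genes were called higher. No gene was called lower in any of the 6 comparisons, where the share of all genes called lower was 26.1% in IL-10 blockade, 16.3% in DSS, 14% in T-cell transfer, 23.4% in TRUC, 10.7% in anti-CD40 and 2.21% in DNBS. Every diseased mouse was above every control for 10 genes in IL-10 blockade (27.6% of all genes), 8 in DSS (25.9%), 9 in T-cell transfer (21.4%), 7 in TRUC (28.8%), 3 in anti-CD40 (19.2%) and 1 in DNBS (15.6%).

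The median log2 fold change of the 10 genes was 2.75 in IL-10 blockade, 2.61 in DSS, 0.64 in DNBS, 1.43 in TRUC, 3.34 in T-cell transfer and 0.84 in anti-CD40, while the median of all genes tested lay between -0.03 and 0.02. With genes whose controls had at most 3 counts set to a lower bound, and without genes at or under 3 counts in both groups, the median was 1.36 over 8 genes in TRUC, 3.20 over 10 in T-cell transfer and 0.32 over 9 in anti-CD40. DSS, DNBS and IL-10 blockade share their 3 control mice, as do T-cell transfer and anti-CD40, so these sets of comparisons are not independent. Without DSS mouse 8 the number of genes higher in DSS was 5 (with 10.4% of all genes called higher), and without the Rag2-/- control mouse 1 or mouse 2 it was 3 in TRUC. Over all genes 6900 and 7220 were then called in TRUC in either direction, in place of 8524. Without the control mouse 4 or anti-CD40 mouse 8 the number of the 10 genes higher in anti-CD40 was 2. Over all genes 2986 and 4747 were then called there, in place of 4015. Against the wild-type controls T-cell transfer had 9 genes higher, and against the Rag2-/- controls anti-CD40 had 2, with Lag3 as the second. Those controls are of another strain by label. Over all genes 5725 and 4503 were called against them in either direction.

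**Figure D1:**
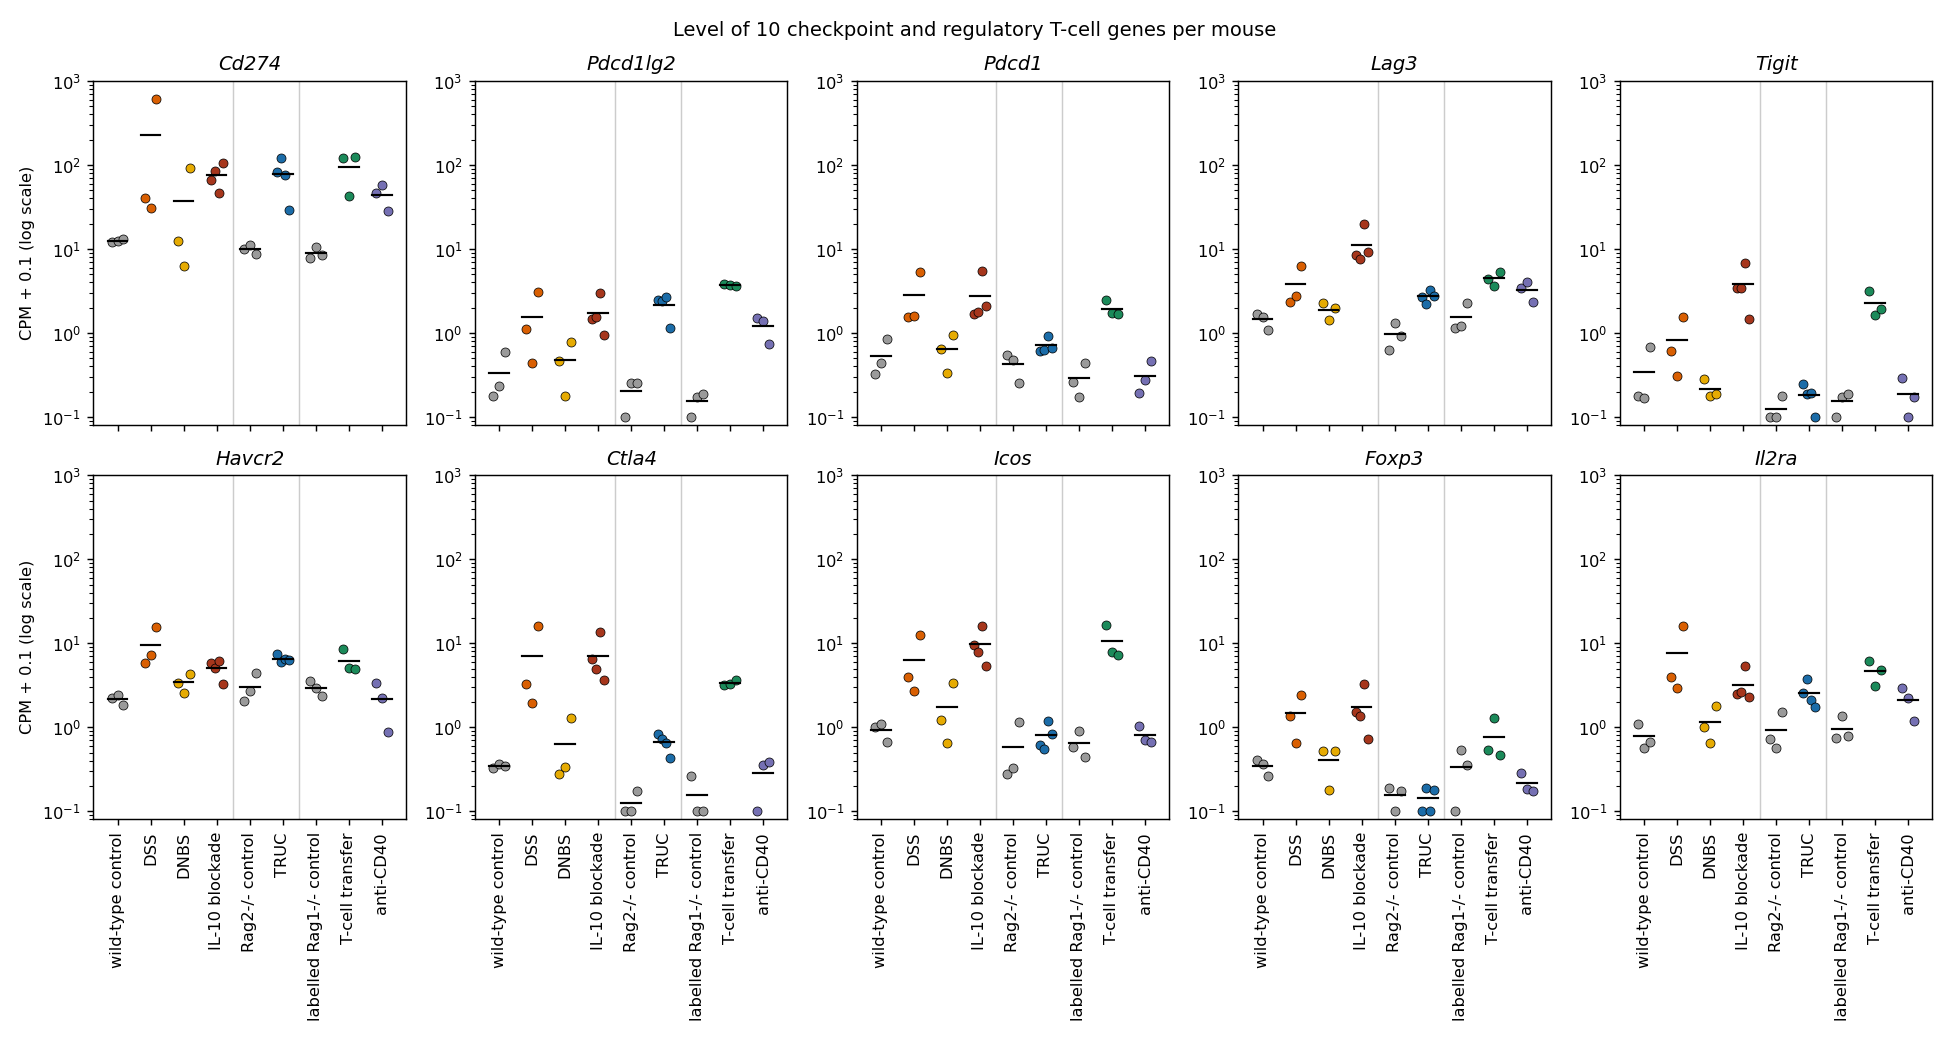
Level of each gene in every mouse, as CPM + 0.1 on a log axis, by group. Each point is 1 mouse and each bar the group mean; vertical lines separate the groups that share controls. Cd274 lies well above the other genes in every group, DSS mouse 8 is the top point for Cd274 at 612 CPM, and Tigit, Ctla4 and Foxp3 sit at the bottom of their axes in the Rag2-/- controls.

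In untreated wild-type colon the ligand gene Cd274 was the most abundant of the 10 per length, at 3.43 CPM per kilobase of exon, followed by Havcr2 at 0.758 and Lag3 at 0.640, and Foxp3 was the least abundant at 0.0535. The other 6 genes lay between 0.106 and 0.260 CPM per kilobase. Ctla4 had 3, 4 and 3 counts in the wild-type mice and 0, 0 and 1 in the Rag2-/- controls, without overlap. Foxp3 had 4, 4 and 2 counts against 1, 0 and 1. None of the 10 genes was called between these control groups by edgeR (0 with an unadjusted p under 0.05) or by DESeq2, and 8.11% of all genes were called in either direction. A count of 0 allows up to 3 counts, or 0.179 to 0.314 CPM in these libraries, so the lowest genes could not be resolved in mice labelled as lymphocyte-deficient.

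Of the PD-1 ligand genes Pdcd1lg2 was called higher in 5 of 6 models, the most of the 10 genes, and Cd274 in 4, as many as Lag3, Havcr2, Ctla4 and Il2ra. They are neighbours on the plus strand of chromosome 19 (GRCm38), Cd274 at chr19:29367455-29388095 and Pdcd1lg2 at chr19:29410919-29471161, with 22823 bases between them.

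Cd274 encodes PD-L1, and 12.4% of the 50-base windows of its exons also lie in another gene, mostly an antisense gene, so a small part of its counts is uncertain. Its level was 12.04, 12.3 and 12.96 CPM in the wild-type controls. IL-10 blockade gave 65.9, 85.8, 46.2 and 105 CPM, all above the controls, with a log2 fold change of 2.60 ± 0.86 (SE, edgeR adjusted p = 0.0137). DSS gave 40.2, 30.7 and 612 CPM. All 3 DSS mice were above the controls, but the third, mouse 8, was far above the other DSS mice, and the log2 fold change of 4.19 ± 0.94 (edgeR adjusted p = 0.00142) became 1.51 without it (edgeR adjusted p = 0.119). DNBS gave 12.5, 6.20 and 91.9 CPM, with mouse 14 below the controls and mouse 16 above them, and the log2 fold change of 1.56 ± 0.87 did not pass (edgeR adjusted p = 0.271). Without mouse 16 it was -0.39 (edgeR adjusted p = 0.873).

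In mice labelled as without lymphocytes of their own, Cd274 rose in TRUC and T-cell transfer. TRUC mice had 83.2, 122, 75.3 and 28.99 CPM and their Rag2-/- controls 9.92, 10.9 and 8.61, without overlap (2.98 ± 0.88 log2, edgeR adjusted p = 0.00808). T-cell transfer gave 121, 42.8 and 123 CPM against 7.70, 10.3 and 8.43 in the libraries labelled Rag1-/- control (3.44 ± 0.92 log2, edgeR adjusted p = 0.00623), and all transfer mice lay above them. Anti-CD40 gave 46.03, 57.1 and 28.1 CPM, again with no overlap, but did not pass in the fit of all groups (2.31 ± 0.90 log2, edgeR adjusted p = 0.0671). That call turned with the fit: with anti-CD40 and its controls alone edgeR gave an adjusted p of 1.35e-04, and DESeq2 7.02e-18. A test of equal change in the 6 models did not pass for Cd274 (edgeR adjusted p = 0.0839), in contrast to the other 9 genes.

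Pdcd1lg2 encodes PD-L2, whose known carriers are mainly dendritic cells and macrophages. It was near the floor in all controls, with 1, 2 and 6 counts in wild-type, 0, 2 and 2 in Rag2-/- and 0, 1 and 1 in labelled Rag1-/- mice. TRUC mice had 32, 26, 28 and 13 counts, a ratio of pooled counts per depth of 19.4 (95% interval 7.34 to 72.6), by counting error alone (edgeR adjusted p = 2.56e-04). T-cell transfer mice had 43, 42 and 38 counts, or 3.76, 3.59 and 3.52 CPM, the highest of the 9 groups and clear of TRUC, the next. Over their controls the pooled ratio was 68.00 (95% interval 18.4 to 568), from 123 against 2 counts (edgeR adjusted p = 2.17e-05), and against the wild-type controls the log2 fold change was 3.94 (edgeR adjusted p = 2.88e-04). Anti-CD40 mice had 15, 15 and 9 counts, all above their controls, and this was the single gene of the 10 called there (pooled ratio 20.2, 95% interval 5.23 to 173, edgeR adjusted p = 0.00486).

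Among mice with their own lymphocytes Pdcd1lg2 counts were 16, 14, 34 and 8 in IL-10 blockade, all above the wild-type controls (2.82 ± 0.71 log2, edgeR adjusted p = 0.00210). DSS gave 16, 5 and 37, which overlapped the controls (2.59 ± 0.74 log2, edgeR adjusted p = 0.00928). The DSS call was lost without mouse 8 (1.55 log2, edgeR adjusted p = 0.144) and narrowly without wild-type mouse 1 (edgeR adjusted p = 0.0507). DNBS gave 6, 1 and 8 counts (0.67 log2, edgeR adjusted p = 0.666), overlapping the controls.

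The 250 bases before the start of both ligand genes, and of the receptor genes Tigit and Ctla4, are printed because the ligand genes are neighbours and Tigit and Ctla4 had the largest folds of the receptor genes in T-cell transfer. They are RefSeq promoter sequences of GRCm38.p6, written 5′ to 3′ on the gene's strand, and 8 of the 10 genes had an entry. The RefSeq start of Ctla4 lies at 60909025, where 1 of its 3 GENCODE transcripts also begins, 22025 bases inside the GENCODE gene. For Cd274 and Tigit the RefSeq start is 17 and 38 bases before the GENCODE gene, and for Pdcd1lg2 they coincide. The search covered 6 letter patterns on both strands: TTCNNNGAA (the GAS site of STAT factors), GAAA followed after any 2 bases by another GAAA (the core of the interferon response element), GGAAAA (the NFAT core), TAAACA (the forkhead core), GGGCGG (the GC box) and TATAAA (the TATA box). The GC box and the TATA box were added after the first 4 had been searched. Capitals mark the matches.
Cd274 (chr19:29367188-29367437, plus strand): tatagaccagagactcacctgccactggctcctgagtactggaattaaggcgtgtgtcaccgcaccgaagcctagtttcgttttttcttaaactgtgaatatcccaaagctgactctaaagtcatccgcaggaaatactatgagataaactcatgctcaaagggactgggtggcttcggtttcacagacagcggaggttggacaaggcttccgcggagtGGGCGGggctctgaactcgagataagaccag
Pdcd1lg2 (chr19:29410669-29410918, plus strand): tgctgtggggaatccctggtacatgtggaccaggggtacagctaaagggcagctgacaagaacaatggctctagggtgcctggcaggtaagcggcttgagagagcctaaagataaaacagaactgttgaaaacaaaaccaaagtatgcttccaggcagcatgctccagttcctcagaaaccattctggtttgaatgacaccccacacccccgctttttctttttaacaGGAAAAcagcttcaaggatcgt
Tigit (chr16:43664185-43664434, minus strand): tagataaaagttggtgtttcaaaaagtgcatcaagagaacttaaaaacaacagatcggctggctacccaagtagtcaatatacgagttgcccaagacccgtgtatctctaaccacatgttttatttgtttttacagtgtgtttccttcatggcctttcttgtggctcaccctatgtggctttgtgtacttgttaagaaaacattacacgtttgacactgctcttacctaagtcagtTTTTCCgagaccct
Ctla4 (chr1:60908775-60909024, plus strand): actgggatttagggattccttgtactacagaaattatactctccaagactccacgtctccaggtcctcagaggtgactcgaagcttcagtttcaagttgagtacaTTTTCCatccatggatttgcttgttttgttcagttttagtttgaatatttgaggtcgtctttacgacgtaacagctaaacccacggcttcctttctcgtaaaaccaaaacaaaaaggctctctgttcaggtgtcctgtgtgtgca

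The Cd274 window held GGGCGG at -31 to -26, counted back from the start, a pattern found in 32.7% of 32851 windows of all genes of the same length. Pdcd1lg2 held GGAAAA at -22 to -17, and Tigit and Ctla4 held its reverse complement TTTTCC at -14 to -9 and -145 to -140, with this pattern in 20.4% of all windows. TTCNNNGAA and the interferon response core, which are in 7.02% and 2.98% of all windows, and TAAACA (12.0%) and TATAAA (12.4%) had no match in these 4 windows. A match is a description of the letters only.

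Of the inhibitory receptor genes, Pdcd1 and Tigit were called in neither TRUC nor anti-CD40, while Lag3 and Havcr2 were called in TRUC. Pdcd1 encodes PD-1, the receptor of both ligands. It was counted 3, 5 and 9 times in the wild-type controls and 19, 16, 62 and 19 times in IL-10 blockade, where mouse 3 was far above the other 3 (2.62 ± 0.57 log2, edgeR adjusted p = 6.07e-04). DSS gave 23, 22 and 65 counts, all above the controls (2.63 ± 0.59 log2, edgeR adjusted p = 0.00147). Without mouse 8 the change was 1.77 log2 and still passed (edgeR adjusted p = 0.0294). T-cell transfer gave 27, 19 and 17 counts against 2, 1 and 4 in its controls, without overlap (3.23 ± 0.69 log2, edgeR adjusted p = 9.70e-04). TRUC mice had 7, 6, 9 and 7 counts and Rag2-/- controls 5, 5 and 2, without overlap, but the difference did not pass (0.90 ± 0.67 log2, edgeR adjusted p = 0.284). Anti-CD40 mice had 1, 2 and 5, which overlapped their controls. In TRUC the ligand genes were called higher and Pdcd1 was not, which at these low counts does not show that Pdcd1 was unchanged.

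Lag3 encodes a CD4-like receptor for MHC class II that is carried by activated T cells and NK cells. Wild-type controls had 1.60, 1.47 and 0.984 CPM and IL-10 blockade 8.35, 7.48, 19.7 and 9.10, the highest of the 9 groups and above every mouse of the next group, T-cell transfer (3.50 to 5.28 CPM). The log2 fold change in IL-10 blockade was 3.04 ± 0.40 (edgeR adjusted p = 3.22e-06). Lag3 was also higher in TRUC, with 2.58, 2.14, 3.12 and 2.69 CPM against 0.531, 1.22 and 0.831 and no overlap (1.58 ± 0.43 log2, edgeR adjusted p = 0.00430). It rose in T-cell transfer (1.60 ± 0.42 log2, edgeR adjusted p = 0.00504). In DSS the rise (1.44 ± 0.41 log2, edgeR adjusted p = 0.00964) was 0.86 without mouse 8 (edgeR adjusted p = 0.139). Anti-CD40 mice had 3.29, 3.94 and 2.22 CPM against 1.05, 1.11 and 2.15, all above their controls, yet at 1.13 ± 0.42 log2 the test missed the threshold (edgeR adjusted p = 0.0566). Against the Rag2-/- controls, of another strain by label, it passed (1.84 log2, edgeR adjusted p = 0.00486).

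Tigit encodes a receptor for the nectin-family ligands Pvr and Nectin2 on T cells and NK cells. It had 1, 1 and 7 counts in wild-type controls and 40, 32, 78 and 13 in IL-10 blockade (3.97 ± 0.68 log2, edgeR adjusted p = 5.69e-05). T-cell transfer gave 35, 18 and 20 counts against 0, 1 and 1, a pooled ratio of 40.4 (95% interval 10.8 to 339.5) from 73 against 2 counts (edgeR adjusted p = 1.56e-04), and 3.19 log2 over the wild-type controls (edgeR adjusted p = 0.00207). These were the 2 of 6 models in which it was called. DSS gave 8, 3 and 18 counts, which overlapped the controls (1.57 ± 0.79 log2, edgeR adjusted p = 0.125), and the rise passed only without wild-type mouse 4 (edgeR adjusted p = 0.0257) or DSS mouse 6 (0.0487). TRUC mice had 2, 1, 1 and 0 counts and anti-CD40 mice 2, 0 and 1, at or under the floor like their controls, so no fold is given.

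Havcr2 encodes TIM-3, which is carried by exhausted T cells and also by macrophages, dendritic cells and mast cells. Its level in the Rag2-/- controls, 1.95, 2.60 and 4.30 CPM, was close to the 2.13, 2.33 and 1.72 CPM of the wild-type mice. TRUC mice had 7.37, 5.96, 6.32 and 6.27 CPM, all above their controls (1.13 ± 0.38 log2, edgeR adjusted p = 0.0173), and the call was lost without the Rag2-/- mouse 1 or mouse 2 (edgeR adjusted p = 0.0947 and 0.0644). DSS gave 5.66, 7.25 and 15.4 CPM, the largest rise of this gene (2.18 ± 0.40 log2, edgeR adjusted p = 2.85e-04). Without mouse 8 the change was 1.64 log2 and still passed (edgeR adjusted p = 0.00440). IL-10 blockade (1.26 ± 0.39 log2, edgeR adjusted p = 0.00882) and T-cell transfer (1.09 ± 0.40 log2, edgeR adjusted p = 0.0409) gave smaller ones. Without transfer mouse 1 the latter did not pass (edgeR adjusted p = 0.178), nor without the control mouse 3 (0.0986) or mouse 4 (0.132). Anti-CD40 gave 3.29, 2.14 and 0.789 CPM, within the range of its controls or below it.

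**Figure D2:**
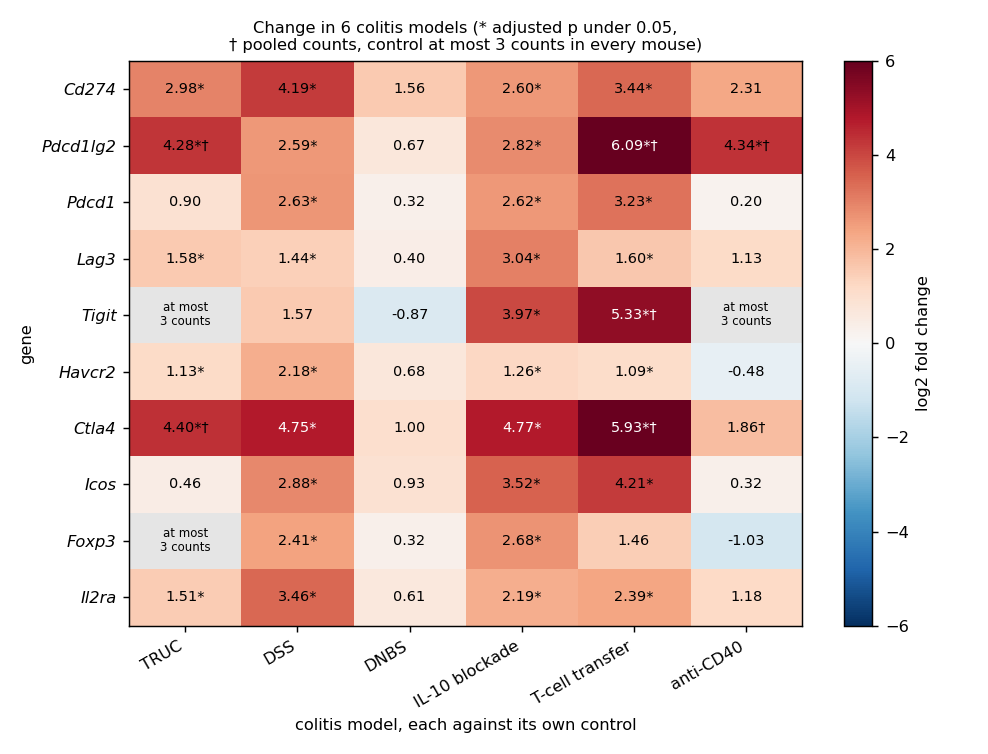
Log2 fold change of the 10 genes in the 6 models, each against its own control. Columns are models, rows are genes, colour is the log2 fold change fitted by edgeR, a star marks an adjusted p under 0.05 and a dagger marks controls with at most 3 counts in every mouse, where the ratio of pooled counts is drawn instead. Grey cells had at most 3 counts in every mouse of both groups. The IL-10 blockade column carries 10 stars, the DNBS column none and the anti-CD40 column 1.

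Ctla4 and Icos, a pair of CD28-family genes 62094 bases apart on chromosome 1 (chr1:60887000-60915832 and chr1:60977927-61000320, GRCm38), both rose in DSS, IL-10 blockade and T-cell transfer, and Ctla4 was called in TRUC as well. Ctla4 encodes the inhibitory CTLA-4. Its counts were 3, 4 and 3 in wild-type controls, 75, 46, 156 and 34 in IL-10 blockade (4.77 ± 0.80 log2, edgeR adjusted p = 3.99e-05) and 51, 27 and 199 in DSS (4.75 ± 0.81 log2, edgeR adjusted p = 1.28e-04), with no overlap in either. Without DSS mouse 8 the change was 3.30 log2 and still passed (edgeR adjusted p = 0.00176). T-cell transfer mice had 35, 37 and 38 counts, close to each other, against 2, 0 and 0, a pooled ratio of 60.8 (95% interval 16.4 to 508) from 110 against 2 counts (edgeR adjusted p = 2.45e-04).

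In TRUC mice, which lack T cells by their label, Ctla4 had 10, 7, 6 and 4 counts against 0, 0 and 1 in the Rag2-/- controls. All 4 TRUC mice were above the controls, and the pooled ratio was 21.2 (95% interval 3.49 to 866), from 27 against 1 count (edgeR adjusted p = 0.0234). The call was lost without Rag2-/- mouse 1 (edgeR adjusted p = 0.0722) or mouse 2 (0.0777). The level was 0.559 ± 0.174 CPM (SD, n = 4), against 7.01 ± 4.40 CPM (n = 4) in IL-10 blockade. Of the 16 T-cell markers 6 were also called higher in TRUC (Cd3d, Cd3g, Trac, Trbc1, Cd8a and Lck), some of which NK and innate lymphoid cells express too, while Cd3e (0.0445 ± 0.0890 CPM) and Cd5 stayed near 0 counts. Of 14 NK and innate lymphoid markers 10 were higher, where 22.4% of all genes were, with summed levels of 96.98 to 121 CPM against 38.7 to 46.5. The part of these cells in the Ctla4 result was not tested. DNBS gave 3, 3 and 14 counts and anti-CD40 0, 3 and 4, neither of them called.

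Icos encodes a costimulatory receptor of activated, follicular helper and regulatory T cells. It rose from 0.914, 0.999 and 0.574 CPM in wild-type controls to 9.44, 7.69, 16.1 and 5.33 in IL-10 blockade (3.52 ± 0.62 log2, edgeR adjusted p = 7.62e-05). DSS gave 3.84, 2.60 and 12.4 CPM (2.88 ± 0.64 log2, edgeR adjusted p = 0.00131). Without mouse 8 the change was 1.93 log2 and still passed (edgeR adjusted p = 0.0259). T-cell transfer gave 16.4, 7.78 and 7.14 CPM against 0.486, 0.810 and 0.344 (4.21 ± 0.68 log2, edgeR adjusted p = 4.57e-05). In these 3 models no diseased mouse overlapped its controls. TRUC mice, at 0.516, 0.445, 1.10 and 0.733 CPM, overlapped the Rag2-/- controls at 0.177, 0.230 and 1.06 (0.46 ± 0.76 log2, edgeR adjusted p = 0.648). Anti-CD40 mice, at 0.939, 0.600 and 0.574 CPM, also overlapped theirs.

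The ligands of these receptors moved less uniformly. Cd86, a ligand of CTLA-4 and CD28, was higher in TRUC (1.21 log2, edgeR adjusted p = 0.0235), DSS (2.58 log2), IL-10 blockade (1.49) and T-cell transfer (2.13). Cd80, the other, was higher in TRUC (2.13), DSS (3.11) and T-cell transfer (2.42), and missed the threshold in IL-10 blockade (1.07 log2, edgeR adjusted p = 0.0927). With DSS mouse 8 left out the DSS changes were 1.52 log2 for Cd86 and 1.61 for Cd80, and both still passed (edgeR adjusted p of 0.00289 and 0.00361). Icosl, the ligand of ICOS, was not called in any of the 6 models (log2 fold changes of -0.34 to 0.44). Lgals9, which encodes a ligand of TIM-3, was higher in all 6, including DNBS (1.66 log2, edgeR adjusted p = 0.00615) and anti-CD40 (1.29 log2, edgeR adjusted p = 0.00730), although without DNBS mouse 16 the former was 1.02 log2 and did not pass (edgeR adjusted p = 0.0592). Of 21 checkpoint partner genes tested, which include these, 13 were higher in IL-10 blockade, 15 in T-cell transfer, 11 in DSS, 9 in TRUC, 5 in anti-CD40 and 2 in DNBS, while 2 fell in DSS and 1 in IL-10 blockade. Of all genes 27.2% were called higher in IL-10 blockade, 16.1% in T-cell transfer, 17.7% in DSS, 22.4% in TRUC, 10.9% in anti-CD40 and 3.95% in DNBS. Without DSS mouse 8 the number of partner genes higher in DSS was 6 and the number lower 1, and without DNBS mouse 16 the number higher in DNBS was 1.

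Foxp3, the defining transcription factor of regulatory T cells, was counted rarely in every group. Wild-type controls had 4, 4 and 2 counts. IL-10 blockade gave 17, 12, 37 and 6, all above the controls (2.68 ± 0.68 log2, edgeR adjusted p = 0.00214). DSS gave 20, 8 and 29, also above them (2.41 ± 0.71 log2, edgeR adjusted p = 0.0108), but without mouse 8 the change was 1.84 log2 and did not pass (edgeR adjusted p = 0.0843). T-cell transfer gave 5, 14 and 4 counts against 0, 6 and 3 in the libraries labelled as its controls. These groups overlapped, and the change was not called against them (1.46 ± 0.79 log2, edgeR adjusted p = 0.169) or against the wild-type controls (1.41 log2, edgeR adjusted p = 0.169). TRUC mice had 0, 1, 0 and 1 counts. Counts of up to 6 in control libraries of mice labelled as lymphocyte-deficient stand beside an overlap of 23.1% of the 50-base windows of the Foxp3 exons with other genes (Flicr, Ccdc22 and Ppp1r3f) in a kit that does not keep strand. Ccdc22, which overlaps Foxp3 on the other strand, was at 0 counts in all 29 mice, and how the counting split these reads is not given in the sources used here. Foxp3 values are therefore uncertain.

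Il2ra encodes CD25, the alpha chain of the high-affinity IL-2 receptor, which regulatory T cells, activated T cells and some innate lymphoid and myeloid cells carry. Its level was 0.991, 0.466 and 0.574 CPM in wild-type controls and 3.90, 2.87 and 15.9 in DSS, without overlap (3.46 ± 0.62 log2, edgeR adjusted p = 1.88e-04). Without DSS mouse 8 it was 2.32 log2 and still passed (edgeR adjusted p = 0.00340). IL-10 blockade gave 2.36, 2.49, 5.32 and 2.20 CPM (2.19 ± 0.60 log2, edgeR adjusted p = 0.00406) and T-cell transfer 6.11, 2.99 and 4.73 (2.39 ± 0.60 log2, edgeR adjusted p = 0.00405). TRUC mice had 2.43, 3.65, 2.02 and 1.63 CPM against 0.620, 0.459 and 1.43, all above their controls (1.51 ± 0.59 log2, edgeR adjusted p = 0.0396), a call that was lost without Rag2-/- mouse 1 or 2 or TRUC mouse 2 or 3 (adjusted p of 0.123, 0.151, 0.0583 and 0.111 by edgeR). Foxp3 was at 0 or 1 count per mouse in TRUC, and which cells the Il2ra reads came from was not tested.

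Other genes linked with regulatory T cells were counted in a list of 20, which holds Tigit too. It had 14 genes higher in T-cell transfer, 13 in DSS, 9 in IL-10 blockade, 5 in DNBS, 5 in TRUC and 1 in anti-CD40, with 4 lower in TRUC, 2 in DSS, and 1 each in IL-10 blockade and anti-CD40. Of all genes 16.1% were called higher in T-cell transfer, 17.7% in DSS, 27.2% in IL-10 blockade, 3.95% in DNBS, 22.4% in TRUC and 10.9% in anti-CD40. The count of the list in TRUC was thus near that share, and in anti-CD40 under it. The share of all genes called lower was 23.4% in TRUC, 16.3% in DSS, 26.1% in IL-10 blockade and 10.7% in anti-CD40. Without DSS mouse 8 the number of the list higher in DSS was 11, and without DNBS mouse 16 it was 3 in DNBS. The largest rise in TRUC, DSS, DNBS and T-cell transfer was that of Il1rl1, the IL-33 receptor gene, which mast cells and type 2 innate lymphoid cells also express (4.06 log2 in TRUC, edgeR adjusted p = 4.02e-05, and 4.32 in DNBS, edgeR adjusted p = 0.00134). In IL-10 blockade it was Il10 itself (5.33 log2, edgeR adjusted p = 1.75e-05). Gpr83, a receptor gene of the same list, fell in TRUC (-3.16 log2, edgeR adjusted p = 0.00143), DSS (-2.54, 0.00448) and IL-10 blockade (-2.40, 0.00223).

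Ordered by mean level, IL-10 blockade was the highest group for Lag3, Tigit, Ctla4 and Foxp3, T-cell transfer for Pdcd1lg2 and Icos, and DSS for Cd274, Pdcd1, Havcr2 and Il2ra. All 4 first places of DSS rested on mouse 8: without it the highest group was T-cell transfer for Cd274 (95.8 CPM, DSS 35.5) and Il2ra (4.61, DSS 3.39), IL-10 blockade for Pdcd1 (2.64, DSS 1.48) and TRUC for Havcr2 (6.48, DSS 6.46). With all mice, neighbours in these orders overlapped, except T-cell transfer and TRUC for Pdcd1lg2, Pdcd1 and Ctla4, IL-10 blockade and T-cell transfer for Lag3, T-cell transfer and DSS for Tigit, and the wild-type and Rag2-/- controls for Cd274.

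T-cell markers rose most widely in IL-10 blockade, T-cell transfer and DSS. All 16 T-cell markers were higher in IL-10 blockade and in T-cell transfer, 12 in DSS (6 without mouse 8), 6 in TRUC and none in DNBS or anti-CD40. Their summed level was 172 to 279 CPM in IL-10 blockade, 248 to 454 in T-cell transfer, 62.2 to 119.7 in DSS, 14.98 to 20.7 in TRUC and 13.4 to 54.2 in DNBS. Of all genes 27.2% were called higher in IL-10 blockade, 16.1% in T-cell transfer, 17.7% in DSS, 22.4% in TRUC, 3.95% in DNBS and 10.9% in anti-CD40. In bulk tissue fewer cells of a type and less RNA per cell cannot be told apart. The genes were therefore also set against the reads of Cd3d, Cd3e and Cd3g, the CD3 chains, in the groups that have T cells.

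Foxp3 had 10.5, 7.14 and 2.86 reads per 100 CD3 reads in the wild-type controls, 11.2, 7.69 and 13.5 in DSS, 10.1, 4.00 and 3.45 in DNBS and 4.27, 2.93, 5.58 and 1.33 in IL-10 blockade. All of these groups overlapped the controls. The mean log2 ratio, with 0.1 CPM added, differed from the controls by -1.32 in IL-10 blockade (exact permutation test, two-sided, p = 0.171, adjusted over 3 comparisons 0.514), 0.46 in DSS (exact p = 0.600) and -0.12 in DNBS (exact p = 0.700). The smallest p this design allows is 0.1 with 3 against 3 mice and 0.057 with 4 against 3, so a difference could not pass. With 1 CPM added the IL-10 blockade difference was -2.19, at that smallest exact p of 0.057, and the DSS difference turned to -0.42. The added 1 CPM is above the mean Foxp3 level of the wild-type controls (0.245 CPM). With the T-cell receptor constant chains in place of CD3 the difference was -0.85 in IL-10 blockade (exact permutation p = 0.114). In DSS it was then 0.37 (exact permutation p = 0.400). T-cell transfer mice had 0.549, 2.31 and 0.864 Foxp3 reads per 100 CD3 reads, all below every wild-type mouse.

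Ctla4 per CD3 was highest in DSS. It was 28.7, 25.96 and 92.6 reads per 100 CD3 reads there, against 7.89, 7.14 and 4.29 in wild-type controls, with no overlap also when mouse 8, the highest, is left aside. IL-10 blockade gave 18.8, 11.2, 23.5 and 7.54, which reached down to the controls, and T-cell transfer 3.85, 6.10 and 8.21, which overlapped them, although its Ctla4 level was 3.25 CPM against 0.247.

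DSS was also the group with the highest mean of Icos (47.6 ± 21.2 reads per 100 CD3 reads, SD, n = 3), Pdcd1 (21.4 ± 8.66) and Il2ra (55.9 ± 31.8). Without mouse 8 the DSS means were 35.4, 17.04 and 37.6. Wild-type means were 22.8 ± 11.3, 9.89 ± 2.62 and 18.9 ± 13.3. For Pdcd1 the order turned in T-cell transfer: at 2.97 to 3.67 reads per 100 CD3 reads every transfer mouse lay below every wild-type mouse (7.89 to 12.9), while its level in CPM was above them. Lag3 per CD3 was likewise lower in T-cell transfer (5.38 to 12.3) than in wild-type mice (17.1 to 55.3). In IL-10 blockade the order turned for Il2ra, with every mouse (4.66 to 9.35) below every wild-type mouse (10.00 to 34.2), while its level in CPM was called higher. T-cell transfer and the wild-type controls also differ in strain by their labels. These ratios are descriptions, and genes such as Cd274, Lag3, Havcr2 and Il2ra are also carried by cells without CD3.

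**Figure D3:**
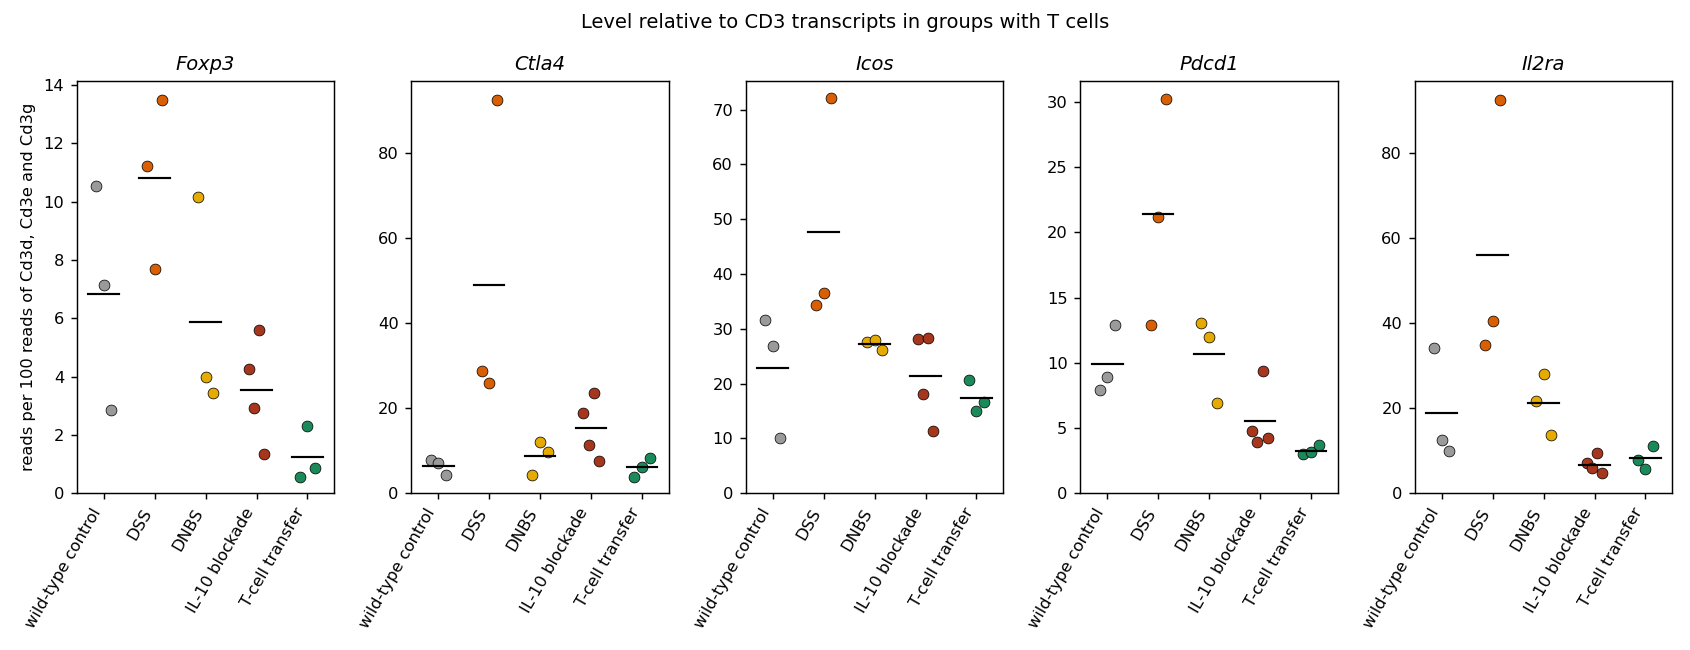
Reads of Foxp3, Ctla4, Icos, Pdcd1 and Il2ra per 100 reads of Cd3d, Cd3e and Cd3g, for each mouse of the 5 groups with T cells. Points are mice and bars group means. The DSS mice reach 92.6 for Ctla4, and T-cell transfer mice lie at 2.97 to 3.67 for Pdcd1, below the wild-type controls.

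The changes differed between models. A test of equal change in all 6 models was passed by 9 of the 10 genes, where 60.5% of all genes passed it, most strongly by Tigit (edgeR adjusted p = 1.15e-05), Icos (edgeR adjusted p = 4.92e-05) and Lag3 (edgeR adjusted p = 8.29e-05). T-cell transfer and anti-CD40 share their controls, so the difference of their changes is the direct comparison. There 6 of 10 genes were higher with T-cell transfer (11.1% of all genes): Tigit (pooled ratio 25.98, 95% interval 8.55 to 129, edgeR adjusted p = 4.85e-04), Ctla4 (4.02 ± 0.88 log2, edgeR adjusted p = 0.00195), Icos (3.89 ± 0.67 log2, edgeR adjusted p = 1.51e-04), Pdcd1 (3.03 ± 0.68 log2, edgeR adjusted p = 0.00241), Pdcd1lg2 (1.71 ± 0.59 log2, edgeR adjusted p = 0.0425) and Havcr2 (1.57 ± 0.41 log2, edgeR adjusted p = 0.00873). The Pdcd1lg2 call was lost with any mouse of the 2 groups left out, and that of Havcr2 without T-cell transfer mouse 1 or anti-CD40 mouse 8. Cd274 (1.13 ± 0.83 log2, edgeR adjusted p = 0.397), Lag3 (0.47 ± 0.39 log2, edgeR adjusted p = 0.468) and Il2ra (1.21 ± 0.56 log2, edgeR adjusted p = 0.145) did not pass. Foxp3 narrowly missed the threshold (pooled ratio 6.14, 95% interval 2.10 to 24.4, edgeR adjusted p = 0.057). Every transfer mouse was above every anti-CD40 mouse for Foxp3. Given the Rag1 and Rag2 counts above, the genotype of the recipients may differ between these groups.

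IL-10 blockade and TRUC, both labelled Balb/C, share no control. The change in IL-10 blockade minus the change in TRUC passed for none of the 10 genes (edgeR, 6.99% of all genes in either direction), and 2 had an unadjusted p under 0.05. These were Icos (3.05 ± 1.00 log2, edgeR adjusted p = 0.0646) and Lag3 (1.45 ± 0.58 log2, edgeR adjusted p = 0.128). For Tigit, Ctla4 and Foxp3 the standard errors were 2.73, 4.81 and 1.94 and the Rag2-/- controls held at most 1 count per mouse, so that a difference was not detectable at this depth. For Cd274 the difference was -0.37 ± 1.14 log2 and for Havcr2 0.14 ± 0.53, and neither shows that the models act alike.

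Interferon-gamma is a known inducer of PD-L1, and its response genes moved in more models than the T-cell markers. Of 13 genes in a list of that response, which holds Ifng itself, 12 were higher in TRUC and 12 in anti-CD40, all 13 in DSS, IL-10 blockade and T-cell transfer, and 7 in DNBS. Of all genes 22.4% were called higher in TRUC, 10.9% in anti-CD40, 17.7% in DSS, 27.2% in IL-10 blockade, 16.1% in T-cell transfer and 3.95% in DNBS. The number of the 13 genes higher was 7 in DSS without mouse 8 and 0 in DNBS without mouse 16. Ifng itself had 0, 0 and 1 counts in wild-type, 1, 0 and 0 in Rag2-/- and 0, 0 and 0 in labelled Rag1-/- controls. It had 20, 35, 29 and 11 counts in TRUC, 8, 19 and 5 in anti-CD40, 38, 27, 34 and 67 in IL-10 blockade and 45, 51 and 75 in T-cell transfer. DSS had 7, 2 and 594 and DNBS 2, 0 and 37, so that the DSS mouse 8 and the DNBS mouse 16, the highest of their groups for Cd274, were also the highest for Ifng. Macrophage and dendritic markers were higher for 12 of 15 in DSS, 10 in TRUC, 10 in T-cell transfer, 9 in IL-10 blockade, 4 in anti-CD40 and 2 in DNBS (10 in DSS without mouse 8, 1 in DNBS without mouse 16). Of the same 15, 2 were called lower in IL-10 blockade and 1 each in T-cell transfer and anti-CD40. Cd209a of that list fell by -3.04 log2 in IL-10 blockade, -2.73 in T-cell transfer and -3.49 in anti-CD40 (highest edgeR adjusted p = 8.64e-04). The part of macrophages and dendritic cells in the rise of Cd274, Pdcd1lg2 and Havcr2 was not tested, nor was that of interferon-gamma in the rise of Cd274.

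The gene whose pattern was most like that of Cd274, by Pearson's r of log2 CPM over the 29 mice, was Ifng (r = 0.95, and 0.93 after removing group means), followed by Gbp5 (0.95) and Trafd1 (0.95). For Pdcd1lg2 it was Trpm2 (0.94), with Itgax, the integrin gene of dendritic cells and macrophages, next (0.93). Havcr2 was closest to Tmem176a (0.88), Tmem176b (0.84) and Cd86 (0.83), and Il2ra to Csf2rb (0.94), a cytokine receptor chain of myeloid cells. The receptors of T cells had other neighbours: Pdcd1 was closest to Ctla4 (0.93), Ctla4 to Batf (0.94), Icos to Sh2d2a (0.96), Lag3 to Gm19585 (0.90), Tigit to Sept1 (0.94) and Foxp3 to Izumo1r (0.88), the folate receptor 4 gene of regulatory T cells. After removing group means the likeness was lower for these closest pairs: 0.81 for Pdcd1lg2, 0.62 for Havcr2, 0.83 for Il2ra, 0.62 for Pdcd1, 0.80 for Ctla4, 0.78 for Icos, 0.65 for Lag3, 0.72 for Tigit and 0.47 for Foxp3. These values are descriptions over mice that share groups, so any pair of genes that rises in the same models is alike by this measure. DSS mouse 8 and DNBS mouse 16 were the highest of their groups for both Cd274 and Ifng. No r was computed without them, so their weight in the 0.93 is not known.

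**Figure D4:**
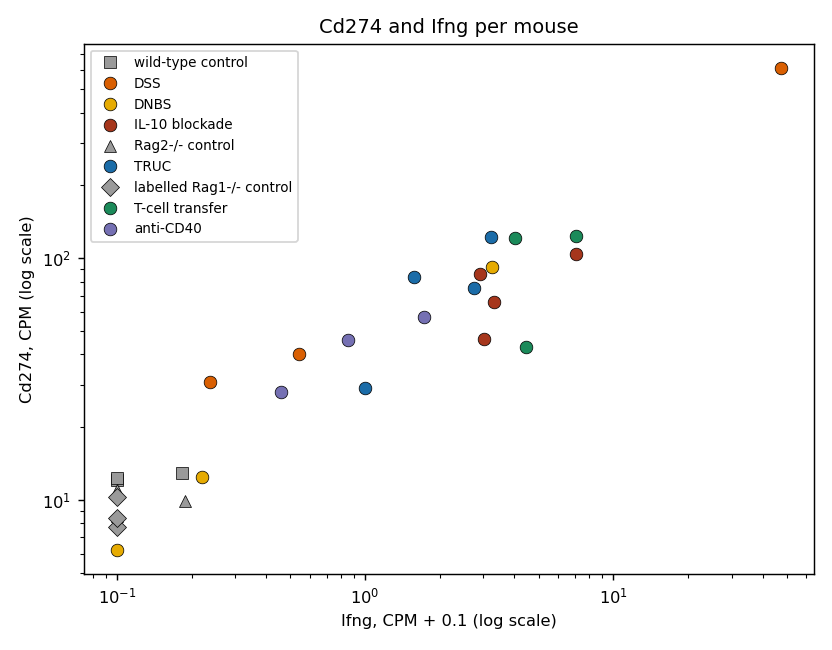
Cd274 (CPM, log axis) against Ifng (CPM + 0.1, log axis) in 29 mice, coloured by group. Controls and DNBS mouse 14 lie at the lower left, DNBS mouse 16 lies among the IL-10 blockade, TRUC and T-cell transfer mice, and DSS mouse 8 is the point at the upper right, with 47.5 CPM of Ifng.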

How the data were processed

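Colon poly(A) RNA of 29 mice was measured by paired-end RNA-seq with a kit that does not keep strand, and the authors deposited raw counts, whole numbers of reads per gene and mouse without normalization. The submitters' processing notes name Trimmomatic, HISAT2, HTSeq and GRCm38, and their settings are not given in the sources used here. The table held 54532 genes and 92 spike-in rows with a total count of 0, which were left out. Positions and symbols of 54495 genes came from GENCODE M21 (GRCm38). Total counts ran from 10725564 to 14977094 per mouse (median 12287039). The 33 pairs of mice of a group differed by at least 3.42 times sampling noise, so each was counted as 1 sample. Nothing in the labels ties mice to litters or cages.

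Counts were fitted with edgeR 4.0.16 in R 4.3.3 (TMM, genes averaging 3 or more counts per mouse, quasi-likelihood, all 9 groups, no covariate), with Benjamini-Hochberg adjustment over 18616 genes and a threshold of 0.05. Standard errors are the size of the change over the root of its F statistic. Where all controls had at most 3 counts, the ratio of pooled counts per depth is given with an exact 95% interval that covers counting error only. Likeness used log2 CPM with a prior count of 2. Ratios to CD3 were compared by exact permutation with 0.1 CPM added. DESeq2 1.42.0, RLE scaling, other filters, 2-group fits, other controls, a replicate block and leaving out each mouse were the alternatives; the block of the Rag2-/- against wild-type comparison, the pooled ratios and the list counts without DSS mouse 8 or DNBS mouse 16 were added after seeing the data. On simulated counts of 18616 genes with 200 changed 4-fold, 99% to 100% were recovered per comparison of a model with its control, with 4 to 14 others called. The changed genes were drawn only from genes with a higher mean level than any of the 10 genes except Cd274. The recovery therefore does not cover the other genes of the 10. Genes described are the 10 named above, the largest and smallest changes of the lists and the 3 genes most like each; other partner genes and the markers given with values were chosen after their values were seen. The genes and lists were chosen with earlier results of these data known.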

Additional observations from a re-analysis of the deposited data

Results flagged for a closer look

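In 4 of 20 gene and group combinations of 4 mice, 1 mouse was separated from the others by more than Dixon's 95% limit for the gap as a share of the group's range. The combinations are correlated genes of the same mice, and 3 of the 4 fall on 1 mouse. The number therefore cannot be set against a chance rate. In IL-10 blockade mouse 3 was the high mouse for Pdcd1 (0.897 of the range), Lag3 (0.868) and Il2ra (0.904). In TRUC mouse 5 was the low mouse for Pdcd1lg2 (0.832). Without IL-10 blockade mouse 3 the log2 fold changes of Pdcd1, Lag3 and Il2ra were 2.01, 2.61 and 1.79, and all 3 still passed (highest edgeR adjusted p = 0.0194). Pdcd1lg2 in TRUC also passed without mouse 5 (edgeR adjusted p = 2.13e-04).

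T-cell transfer and anti-CD40, set against the same controls, differed in 6 genes. The difference in log2 fold change, transfer minus anti-CD40, was 4.53 for Tigit, 4.02 for Ctla4, 3.89 for Icos, 3.03 for Pdcd1, 1.71 for Pdcd1lg2 and 1.57 for Havcr2. Anti-CD40 had at most 3 Tigit counts per mouse, so that the Tigit value depends on the prior count.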

How the results depend on the processing

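RLE scaling, both other filters on low counts, DESeq2 and edgeR on the groups compared alone reversed no gene of the 10. Over all alternatives of single genes that gave an adjusted p, 1029 kept direction and side of the threshold, 28 lost and 12 gained it. For anti-CD40 the number of the 10 genes called was 2 with no filter, 3 with its 2 groups alone, 3 with DESeq2 and 2 against Rag2-/- controls, in place of 1. With its 2 groups alone DSS had 7 genes called, without Pdcd1lg2 and Lag3. Over all genes the number called was 624 with 2 groups alone and 1877 with DESeq2 in DNBS, in place of 1148. It was 3708 and 3418 for Rag2-/- against wild-type controls, in place of 1510, and 858 with no filter for IL-10 blockade minus TRUC, in place of 1301. The causes were not tested.

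Leaving out 1 mouse gave 3 to 6 of the 10 genes in TRUC, 5 to 10 in DSS, 1 to 2 in anti-CD40, 8 to 9 in T-cell transfer, 4 to 5 between the last 2, 10 in IL-10 blockade, and 0 in DNBS. Over all genes it gave 3835 to 6286 in DSS, 198 to 2342 in DNBS, 1749 to 4747 in anti-CD40, 964 to 1166 for Rag2-/- against wild-type controls and 463 to 1596 for IL-10 blockade minus TRUC. Where a group keeps 2 mice, the pooled spread of all groups stands in for it. The Foxp3 to CD3 difference was -0.42 in DSS and -2.19 in IL-10 blockade with 1 CPM added, and leaving out 1 mouse gave -1.76 to -0.94 in the latter. With the T-cell receptor constant chains in place of CD3 the difference was 0.37 in DSS and -0.85 in IL-10 blockade.

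Same-numbered mice did not deviate together (r of -0.08 to 0.07), so the numbers gave no sign of a pairing, although this cannot exclude one. With the number as a block, 5 of the 10 genes passed in TRUC (Il2ra was lost), 10 in IL-10 blockade and 0 for Rag2-/- against wild-type controls, where 3340 of all genes passed. The other groups share fewer than 2 numbers. Depth limits Tigit, Foxp3, Ctla4 and Pdcd1lg2 most, since their controls hold few counts.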
